A study of Mus musculus with 2 samples.

Results

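The trypsin-like serine protease genes Prss21, Prss46, Prss50, Prss51, Prss52, Prss55 and Klk1b8 were followed through germ cell development in the mouse testis. They were found by symbol, and all 7 were present among the 32285 genes counted in both libraries. They were chosen by their levels across germ cell stages in earlier results of these same data, so the stage patterns are a description and carry no test. The data are 2 single-cell RNA libraries from whole testis, 1 of Prm2 -/- (knockout) mice and 1 of Prm2 +/- (heterozygous) mice. Prm2 encodes protamine 2, which with protamine 1 replaces most histones in the condensing sperm head, and the heterozygous mice carry a single intact copy and are not wild type. The number and age of the mice behind each library and the nature of the deleted allele are not given in the sources used here.

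Trypsin-like proteases cut proteins after lysine or arginine by means of a histidine, an aspartate and a serine that work together, and many are made as inactive precursors. Mammalian male germ cells make a large set of them, some held on the cell surface by a glycolipid anchor and some stored in the acrosome, the vesicle on the sperm head that opens at fertilization. Knockout mice have tied several of these enzymes to sperm maturation and to the processing of ADAM3, a surface protein that sperm need to pass from the uterus into the oviduct.

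The stretch that holds the catalytic serine separates these genes by type and is shown for that reason. Each sequence below is the 33 bases of the gene's GENCODE M21 transcript between and including a pair of conserved cysteine codons, with codon 5 of 11, the catalytic position, in capitals.
Prss50: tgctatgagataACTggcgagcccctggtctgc
Prss21: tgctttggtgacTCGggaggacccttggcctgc
Prss46: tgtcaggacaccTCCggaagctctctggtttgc
Prss55: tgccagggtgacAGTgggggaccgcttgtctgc
Prss52: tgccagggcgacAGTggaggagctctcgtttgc
Prss51: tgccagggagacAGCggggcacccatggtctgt
Klk1b8: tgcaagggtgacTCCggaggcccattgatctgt
The codon in capitals is a serine codon in 6 genes and a threonine codon, ACT, in Prss50, the mouse counterpart of the human cancer-testis antigen TSP50. Among the 21 pairs of stretches, Prss52 and Prss55 were the most alike with 27 of 33 bases identical, followed by Prss51 and Prss55 with 26. The fewest identical bases, 17, were in Prss21 against Prss46, Prss46 against Prss51 and Prss50 against Klk1b8.

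Most of the genes lie in small groups on mm10. Prss55 (chr14:64075438-64090162, minus strand), Prss51 (chr14:64086234-64097678, plus strand) and Prss52 (chr14:64104286-64113755, plus strand) sit within 38.3 kb. Prss55 and Prss51 overlap by 3929 bases on opposite strands, but 0 bases of their exons overlap. Prss46 (chr9:110844506-110856522) and Prss50 (chr9:110857967-110864629), both on the plus strand, are 1.44 kb apart at the end of a row of 6 protease genes, with Prss42, Prss44, Prss43 and Prss45, that covers 66.5 kb. Klk1b8 (chr7:43950664-43954941, plus strand) is at the edge of the 14-gene kallikrein 1 family, which spans 279 kb. Prss21 (chr17:23868056-23873114, plus strand) is on chromosome 17. The genes have 5 annotated exons in their longest transcript models, and Prss21 has 6.

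The library kit reads the ends of transcripts at the poly(A) tail, so near-identical last exons could share UMIs (unique molecular identifiers, the tags by which RNA molecules are counted). None of the 50-base stretches in the last 500 exonic bases of Prss21, Prss46, Prss50, Prss51, Prss52 or Prss55 matched a transcript of another gene (0% shared). For Klk1b8, 36 of 451 stretches (7.98%) also occur in transcripts of other genes. Those sharing the most were Klk1b16, Klk1b26, Klk1b24 and Klk1b21, and further genes that may share fewer were not listed. Klk1b8 counts may therefore hold a few UMIs of those relatives. Prss52 and Klk1b8 also overlap the antisense genes Gm17116 and Gm44756, with 0 exonic bases in common, and Gm17116 had 0 UMIs in the knockout and 2 in the heterozygous library. Gm44756, which covers all 4278 bases of Klk1b8, was counted, with 286 UMIs in knockout and 145 in heterozygous round-spermatid-like cells, against 1255 and 1398 UMIs of Klk1b8 in the same cells. Whether strand and introns were used in counting is not given in the sources used here, so reads from the shared introns of Prss51 and Prss55, or from Klk1b8 and Gm44756, may be split between them in an unknown way.

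Prss46 and Prss50 are shown with their promoters because these close neighbours on the same strand peaked at different stages. The sequences are from RefSeq on GRCm38.p6, plus strand, from 250 bases before to 50 after the start of the gene, at chr9:110857714-110858013 for Prss50 and chr9:110844256-110844555 for Prss46. The capitals mark matches to the motifs named below.
Prss50: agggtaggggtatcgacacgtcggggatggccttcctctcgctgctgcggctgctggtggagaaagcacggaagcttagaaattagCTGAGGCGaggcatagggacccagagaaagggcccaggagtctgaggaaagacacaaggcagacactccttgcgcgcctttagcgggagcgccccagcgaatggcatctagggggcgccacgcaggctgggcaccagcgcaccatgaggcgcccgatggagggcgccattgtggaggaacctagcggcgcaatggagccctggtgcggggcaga
Prss46: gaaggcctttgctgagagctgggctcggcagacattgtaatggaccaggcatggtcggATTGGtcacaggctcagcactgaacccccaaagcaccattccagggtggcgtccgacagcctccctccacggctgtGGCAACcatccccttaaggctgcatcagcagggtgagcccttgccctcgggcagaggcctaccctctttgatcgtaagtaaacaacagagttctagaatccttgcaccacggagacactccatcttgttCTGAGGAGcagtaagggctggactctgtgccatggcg
Both strands were searched for 7 motifs. CNCCTCAG, linked to STRA8, the factor that starts meiosis, was found on the opposite strand 164 bases before the start of Prss50 and 13 bases after that of Prss46, and 7.94% of the 32851 mouse promoters in the table hold it. Prss46 also held GTTGCC, part of the X-box bound by RFX factors, 116 bases before its start (12.5% of promoters), and CCAAT 192 bases before it (37.4%), both on the opposite strand. The Prss50 promoter held none of the other 6, which were TATAAA (13.6% of promoters), TGACG (20.8%), TAACNG (23.3%), GGGCGG (35.7%), GTTGCC and CCAAT. The GC content was 64.0% in Prss50 and 57.7% in Prss46, against a median of 52.7% over the table. Of the other members, Prss21 and Klk1b8 were also in the table.

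The knockout library held 123588822 UMIs in 22885 barcodes (median 3716 per barcode), and the heterozygous library held 71364845 UMIs in 15210 barcodes (median 1882.5). After filtering and doublet removal, 18963 knockout and 14576 heterozygous cells remained, in 22 clusters of which 16 were germ cells. Both libraries had more barcodes than the labels give as cells loaded, and the knockout also had more kept cells. The reason was not tested, and it limits the numbers and shares of cells. The deleted gene went with the labels, since elongating-spermatid-like cells had 9.60 CPM (UMIs of the gene scaled to 1e6 UMIs of the class) of Prm2 in the knockout and 40821 CPM in the heterozygous library. The libraries shared 88 barcode sequences, 0.385% of knockout and 0.579% of heterozygous barcodes. In each germ cell class 9 or more of the class's own markers were above 10 CPM in both libraries, but the 14 elongating spermatid markers were also above 10 CPM in every germ class, so the most abundant spermatid RNAs were counted throughout. Each genotype has 1 library, so no difference could be tested or checked between replicates. All intervals are 95% and cover counting error only.

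The 7 genes were high at several stages, with Prss55, Prss52 and Prss51 at the same one, and the order of stages was the same in both libraries. Clusters were placed by a stage score, the mean of the germ marker sets numbered 1 (spermatogonia) to 5 (elongating spermatids), weighted by each set's standardized level. Prss50 was highest in the earliest germ cluster, Prss21 in late-spermatocyte-like cells, Prss46 in early round-spermatid-like cells, Prss55, Prss52 and Prss51 in cells between round and elongating spermatids, and Klk1b8 in elongating-spermatid-like cells. In 6 of 7 genes the highest cluster was the same in both libraries. The exception was Klk1b8, highest in cluster 1 in the knockout and cluster 11 in the heterozygous library, which are both elongating-spermatid-like. Both libraries were clustered together and the genes were chosen by their stage levels. The share of all genes with the same highest cluster in both libraries was not computed.

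**Figure D1:**
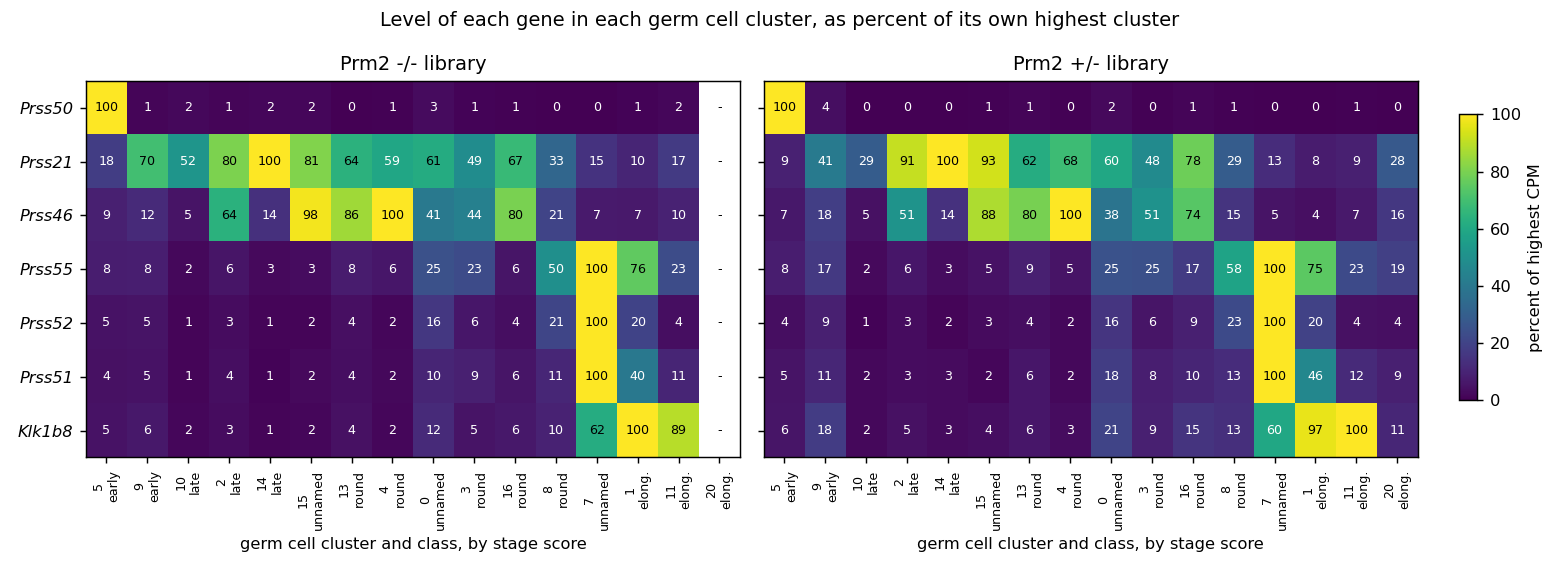
Heat maps of each gene's CPM in each germ cell cluster as a percentage of that gene's own highest cluster, with the knockout library on the left and the heterozygous library on the right; clusters run along the x axis by stage score, and cluster 20 has 31 knockout cells and is left blank there. The bright cells step from Prss50 in cluster 5 to Klk1b8 in clusters 1 and 11, and cluster 7 is the highest for Prss55, Prss52 and Prss51 in both libraries.

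Prss50 had the narrowest pattern. In cluster 5, which scored alike for spermatogonia and early spermatocytes and was led by genes such as Stra8, Dazl and Hells, Prss50 reached 192 CPM in the knockout (interval 179 to 206, 797 UMIs) and 248 CPM in the heterozygous library (227 to 270, 530 UMIs). These intervals do not overlap, and the level was lower in the knockout, with a log2 ratio of -0.36. That ratio lies within the 10th to 90th percentiles of the 5035 genes compared in the cluster (-0.39 to 0.52). In the earliest class the direction depends on the class definition, as given below. The next highest germ cluster had 5.48 CPM in the knockout and 8.92 CPM in the heterozygous library, 35.1 and 27.7 times below cluster 5. The knockout value is from unnamed cluster 0, with 119 knockout cells, where 15 Klk1b8 UMIs made 82.2 CPM, so it rests on very few counts. In cluster 10 Prss50 was at 4.24 CPM in the knockout (55 UMIs). When each cell was thinned to 2000 UMIs, 28.6% of knockout cells (25.8 to 31.6) and 39.8% of heterozygous cells (35.4 to 44.4) of cluster 5 had a Prss50 UMI. The corresponding shares in Leydig-like cells, which should not make it, were 0.606% and 0.833%. Without thinning, the shares in cluster 5 were 35.3% and 52.3%, with median depths of 2336 and 3348.5 UMIs. In Leydig-like cells Prss50 was at 5.26 CPM in the knockout and 2.18 CPM in the heterozygous library.

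Prss21 encodes testisin, a protease anchored to the germ cell and sperm surface by glycolipid. Its RNA was spread over many stages. It was highest in late-spermatocyte-like cluster 14, at 143 CPM in the knockout and 138 CPM in the heterozygous library. Levels stayed high in the neighbouring clusters 2 (115 CPM in knockout and 126 CPM in heterozygous cells) and 15 (116 and 129 CPM in the same order of libraries). They were lowest in elongating-spermatid-like cluster 1, at 14.6 CPM in the knockout and 10.6 CPM in the heterozygous library. Among the clusters where it could be compared, the log2 ratio was furthest from 0 in cluster 10. In that cluster, led by Piwil1 and Tex101, Prss21 was at 74.6 CPM in the knockout and 40.2 CPM in the heterozygous library, a log2 ratio of 0.89 (0.71 to 1.08). In cluster 14 the ratio was 0.05 (-0.10 to 0.20). After thinning, 24.6% of knockout and 22.9% of heterozygous cells of cluster 14 had a Prss21 UMI, against 3.03% and 4.17% of Leydig-like cells. Sertoli-like cells had 36.0 CPM of Prss21 in the knockout and 54.9 CPM in the heterozygous library, above the 14.5 and 21.8 CPM of Leydig-like cells.

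Prss46 lies beside Prss50 but was high later. It peaked in round-spermatid-like cluster 4, at 284 CPM in the knockout (274 to 293) and 316 CPM in the heterozygous library (303 to 329). Cluster 15 scored best for late spermatocytes but has no name, because hemoglobin genes are among its leading genes. It reached 279 CPM in the knockout (264 to 295) and 277 CPM in the heterozygous library (241 to 318). Its intervals overlap those of cluster 4 in each library. Across cluster 10, where Prss21 was already at 74.6 CPM in the knockout, Prss46 was at 14.6 CPM in the knockout and 14.5 CPM in the heterozygous library. Past cluster 4 it was at 124 CPM in knockout and 160 CPM in heterozygous cells of cluster 3. It was higher again in cluster 16, next by stage score, at 226 and 234 CPM in the same order of libraries. Levels then fell to 58.5 and 47.2 CPM in cluster 8 and to 19.6 and 13.4 CPM in cluster 1. Before the peak it was at 181 and 162 CPM in cluster 2 but at 39.4 and 44.4 CPM in cluster 14. The level thus did not change steadily along the stage score. After thinning, 42.8% of knockout and 46.4% of heterozygous cells of cluster 4 had a Prss46 UMI, against 5.45% and 2.50% of Leydig-like cells. Sertoli-like cells had 41.4 CPM of Prss46 in the knockout and 68.2 CPM in the heterozygous library, above the 28.9 and 22.9 CPM of Leydig-like cells. The nearby Prss42, Prss43 and Prss45, named for their position, were highest in cluster 14, at 126, 87.8 and 85.5 CPM in the knockout and 119, 101 and 89.3 CPM in the heterozygous library. Prss44 was highest in cluster 10 in the knockout, at 52.9 CPM, and in cluster 14 in the heterozygous library, at 54.2 CPM. The row of 6 genes on chromosome 9 therefore held peaks in the earliest germ cells and in late-spermatocyte-like cells (4 genes). The Prss46 peak was in round-spermatid-like cells, but cluster 15 was nearly as high. It moved to late-spermatocyte-like cells in 2 of 8 alternatives, so its separation from the peaks of those 4 genes is not firm.

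Prss55, Prss52 and Prss51, neighbours on chromosome 14, shared a peak in cluster 7. Cluster 7 scored highest for elongating spermatids but stayed unnamed because its leading genes include Hemgn, a round spermatid marker, and none of the elongating set. Prss52 is itself among its leading genes, although the members were left out of the clustering. Prss55 encodes a glycolipid-anchored protease without which mouse sperm lose mature ADAM3 and do not enter the oviduct, while mice without Prss51 are fertile. In cluster 7, Prss55 was at 463 CPM in the knockout and 445 CPM in the heterozygous library. Prss52 was at 637 CPM in the knockout and 619 CPM in the heterozygous library. Prss51 was at 319 CPM in the knockout and 294 CPM in the heterozygous library. In cluster 7 the log2 ratios of the 3 genes lay between 0.04 and 0.12, and the Prss55 and Prss52 intervals included 0.

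The 3 neighbours differed in how long they stayed up. Prss55 was already at 230 CPM in knockout and 258 CPM in heterozygous cells of round-spermatid-like cluster 8, and was still at 351 and 333 CPM in cluster 1 of the same libraries. Prss52 was at 133 CPM in knockout and 140 CPM in heterozygous cells of cluster 8, and at 127 CPM in knockout and 122 CPM in heterozygous cells of cluster 1. Prss51 was low in cluster 8, at 33.7 CPM in knockout and 37.7 CPM in heterozygous cells, and at 127 CPM in knockout and 137 CPM in heterozygous cells of cluster 1. By cluster 11 the knockout library had 108 CPM of Prss55, 22.5 CPM of Prss52 and 33.6 CPM of Prss51, and the heterozygous library had 101, 27.3 and 35.0 CPM of the same genes. Relative to its own peak, Prss55 was thus the broadest of the 3, Prss52 the narrowest on the late side, and Prss51 the latest to appear.

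**Figure D2:**
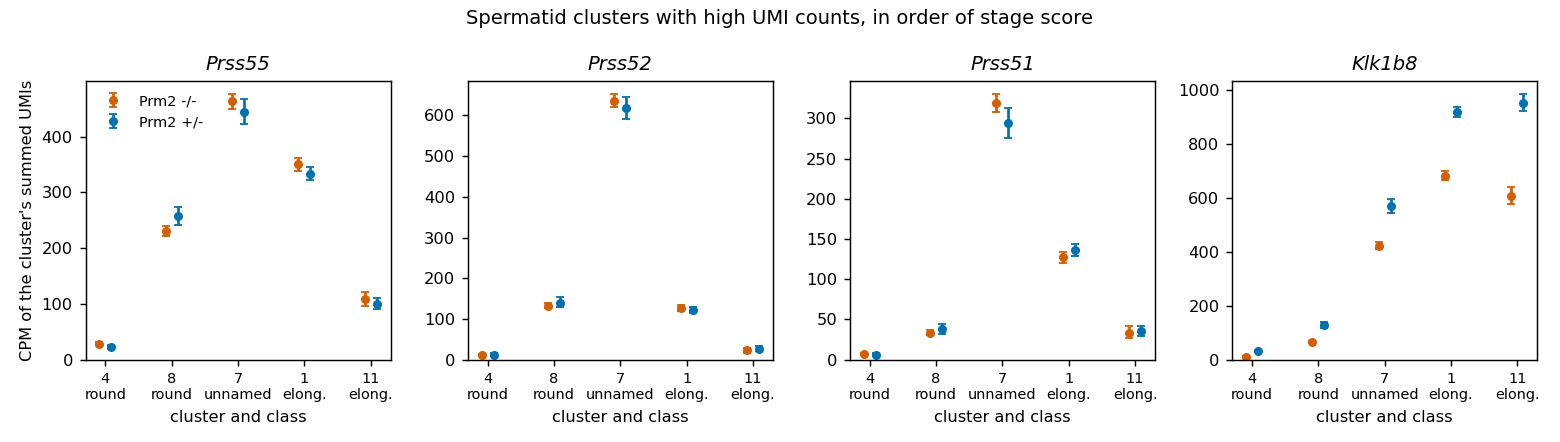
CPM of Prss55, Prss52, Prss51 and Klk1b8 (y axes, each from 0) in the spermatid clusters with high UMI counts, in order of stage score along the x axis, with knockout points left of heterozygous points and bars for exact 95% Poisson intervals. The chromosome 14 genes peak in cluster 7 at about the same level in both libraries, while Klk1b8 keeps rising to cluster 1, where it is at 682 CPM in the knockout and 920 CPM in the heterozygous library.

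The shares of cells gave the same picture at equal depth. After thinning, Prss52 was found in 71.1% of knockout and 67.7% of heterozygous cells of cluster 7, Prss55 in 59.5% and 61.2%, and Prss51 in 48.5% and 47.8%. In Leydig-like cells the shares were 3.03% and 2.50% for Prss52, 3.64% and 8.33% for Prss55, and 1.21% and 4.17% for Prss51, in the same order of libraries. At least 1 of the 3 genes was found in 92.7% of knockout and 91.8% of heterozygous cells of cluster 7, and all 3 in 21.4% and 21.6%. Within cluster 7, Prss55 was found in 61.0% of knockout cells with a Prss52 UMI and 55.9% of those without, and in 62.9% and 57.4% of heterozygous cells. Within cluster 1, Prss55 was found in 55.8% of knockout cells with a Prss51 UMI and 43.8% of those without, and in 60.6% and 38.4% of heterozygous cells. In cluster 1 a cell with Prss51 was thus more often one with Prss55, a description of cells that share a library and may differ in stage. Over the germ clusters with at least 50 cells (15 knockout, 16 heterozygous), the pairwise r of the 3 profiles was 0.911 to 0.934.

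These 3 genes also appeared outside the germ classes. In cluster 6, which is Sertoli-like but also scored for elongating spermatids, Prss52 was at 198 CPM in knockout and 113 CPM in heterozygous cells, and Prss55 at 194 CPM in knockout and 139 CPM in heterozygous cells. The 14 elongating spermatid markers summed to 58347 CPM in knockout and 67199 CPM in heterozygous Sertoli-like cells. Their part in these levels was not tested.

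Klk1b8, a tissue kallikrein of a family expanded in rodents, had the latest pattern. In elongating-spermatid-like cells it was at 665 CPM in the knockout (651 to 679, 8239 UMIs) and 920 CPM in the heterozygous library (904 to 936, 12184 UMIs), a log2 ratio of -0.47 (-0.51 to -0.43). It was lower in the knockout in cluster 1, at 682 CPM against 920 CPM in the heterozygous library, and in cluster 11, at 608 CPM against 954 CPM. After thinning, 73.8% of knockout and 83.7% of heterozygous cells of cluster 1 had a Klk1b8 UMI. In Leydig-like cells the shares were 11.5% and 11.7%, and in Sertoli-like cells 26.6% and 36.4%, so Klk1b8 was counted well outside spermatids. Before thinning, cells of cluster 1 had a median of 4340.5 UMIs in the knockout and 6760.5 in the heterozygous library, Leydig-like cells 4176 and 1734.5, and Sertoli-like cells 1888.5 and 998.

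Klk1b8 was lower in the knockout in 18 of the 19 clusters with at least 50 cells in both libraries, the exception being Sertoli-like cluster 6. The protamine 1 gene, Prm1, was lower in the knockout in the same 18 clusters. In cluster 6 Prm1 too was higher, with 30694 CPM in the knockout and 29677 CPM in the heterozygous library. Its level over the earliest class was 4661 CPM in the knockout and 12021 CPM in the heterozygous library. The direction was thus not particular to Klk1b8. Among the germ classes the Klk1b8 ratio was furthest from 0 in the earliest. In round-spermatid-like cells it was at 37.8 CPM in the knockout and 74.3 CPM in the heterozygous library (log2 -0.97, -1.08 to -0.86). In spermatogonia- or early-spermatocyte-like cells it was at 38.2 CPM in the knockout and 103 CPM in the heterozygous library (log2 -1.44, -1.67 to -1.21). The summed level of the 14 elongating spermatid markers moved with it in those early cells, at 13490 CPM in the knockout and 27939 CPM in the heterozygous library, all 14 being above 10 CPM. The early difference was larger in cluster 9, whose leading genes are long and whose name rests on a low score. There Klk1b8 was at 43.9 CPM in the knockout and 170 CPM in the heterozygous library, and in cluster 5 at 34.3 CPM in the knockout and 54.2 CPM in the heterozygous library.

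A ratio to Prm1, the protamine 1 gene whose profile was closest to that of Klk1b8, was computed after these values were seen. In elongating-spermatid-like cells there were 8.74 Klk1b8 UMIs per 1000 Prm1 UMIs in the knockout (8.55 to 8.93) and 9.87 in the heterozygous library (9.70 to 10.05). In spermatogonia- or early-spermatocyte-like cells the ratio was 8.19 in the knockout and 8.59 in the heterozygous library, and in Sertoli-like cells 8.63 and 8.76. Over the 18 clusters with at least 50 cells in both libraries other than the Leydig-like one it was 6.30 to 9.57 in the knockout and 6.80 to 10.9 in the heterozygous library. Klk1b8 and Prm1 UMIs thus stood in nearly the same proportion in cells of very different stage. Leydig-like cells of the knockout were the exception, at 25.9 (19.3 to 34.1), against 8.46 (7.02 to 10.1) in the heterozygous library. Of the relatives that share the most sequence with Klk1b8, Klk1b21 in those cells was at 829 CPM in the knockout and 542 CPM in the heterozygous library, and Klk1b24 at 766 CPM in the knockout and 328 CPM in the heterozygous library. Klk1b16 was at 61.8 CPM in the knockout and 58.8 CPM in the heterozygous library, and Klk1b26 at 19.7 CPM in the knockout and 45.7 CPM in the heterozygous library. Klk1b27 and Klk1b22, whose sharing was not listed, were at 480 and 196 CPM in the knockout and at 261 and 130 CPM in the heterozygous library. Their part in the Klk1b8 count was not tested.

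**Figure D3:**
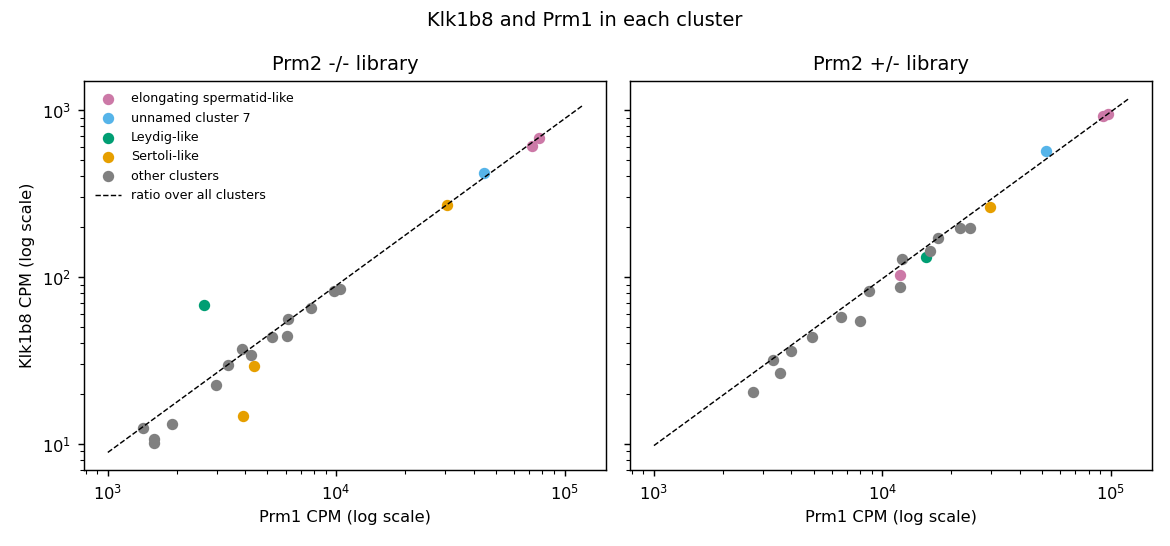
Klk1b8 CPM against Prm1 CPM on log axes, 1 point for each cluster with at least 50 cells in that library, knockout left and heterozygous right; the dashed line is the ratio over all clusters of the library. Points of every stage lie close to the line, with knockout Leydig-like cells above it and a small knockout Sertoli-like cluster of 76 cells, at 3.74 Klk1b8 per 1000 Prm1 UMIs, below it.

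Between genotypes, 15 of the 28 pairs of a gene and a germ class had enough counts to compare (at least 50 CPM in a library and 100 UMIs over both). The classes leave out the unnamed germ clusters 7, 15 and 0. Cluster 7, the peak of Prss51, Prss52 and Prss55, held 1424 knockout and 310 heterozygous cells. Cluster 15 held 909 and 113, and cluster 0 held 119 and 3474, in the same order of libraries. The class values therefore do not cover all germ cells. Of these, 7 were higher and 8 lower in the knockout by any amount. By a rule of size of 2-fold, which is not a test, 0 pairs were higher and 1 was lower, Klk1b8 in the earliest class. No pair was 2-fold lower (0) with at most 10% mitochondrial UMIs, with all filtered cells kept, with a minimum of 200 CPM, or with classes from each cell's own markers, where Klk1b8 in the earliest class was at 29.7 CPM in the knockout and 56.4 CPM in the heterozygous library. Over all genes compared in spermatogonia- or early-spermatocyte-like cells, 1.47% passed 2-fold upwards and 2.84% downwards in the knockout. The shares upwards and downwards were 0.82% and 0.386% in late-spermatocyte-like cells, 1.02% and 0.711% in round-spermatid-like cells, and 5.87% and 0.957% in elongating-spermatid-like cells. The members' median log2 ratio was -0.40 for 4 genes in the earliest class, against 0.07 over all 5169 genes compared. It was -0.11 for 2 genes against 0.005 over 4148 genes in late-spermatocyte-like cells, -0.16 for 5 genes against 0.01 over 3940 genes in round-spermatid-like cells, and 0.08 for 4 genes against 0.19 over 2299 genes in elongating-spermatid-like cells.

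Among the other members, Prss50 had a log2 ratio of -0.34 (-0.50 to -0.18) in the earliest class. It was -0.98 with all filtered cells kept and 0.24 with classes from each cell's own markers, so its direction depends on the class definition. Prss21 was at 102 CPM in knockout and 93.7 CPM in heterozygous late-spermatocyte-like cells (log2 0.13, 0.04 to 0.21), and at 55.7 CPM in knockout and 31.3 CPM in heterozygous cells of the earliest class (0.83, 0.53 to 1.14). The summed late spermatocyte markers of the earliest class were also higher in the knockout, as given below with Adam2. In elongating-spermatid-like cells Prss55 was at 300 CPM in the knockout and 267 CPM in the heterozygous library, Prss52 at 105 and 94.9 CPM, and Prss51 at 108 and 107 CPM, with log2 ratios of 0.17, 0.15 and 0.00. With a TMM factor between the libraries, which moves all log2 ratios of this class by -0.46, the same ratios were -0.29, -0.31 and -0.46, so their direction depends on the scaling, while Klk1b8 was lower in the knockout either way (-0.93 with the factor). With all filtered cells kept the ratios were 0.30 for Prss55, 1.03 for Prss52 and 0.56 for Prss51, and with classes from each cell's own markers 0.37, 0.87 and 0.58 for the same genes.

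**Figure D4:**
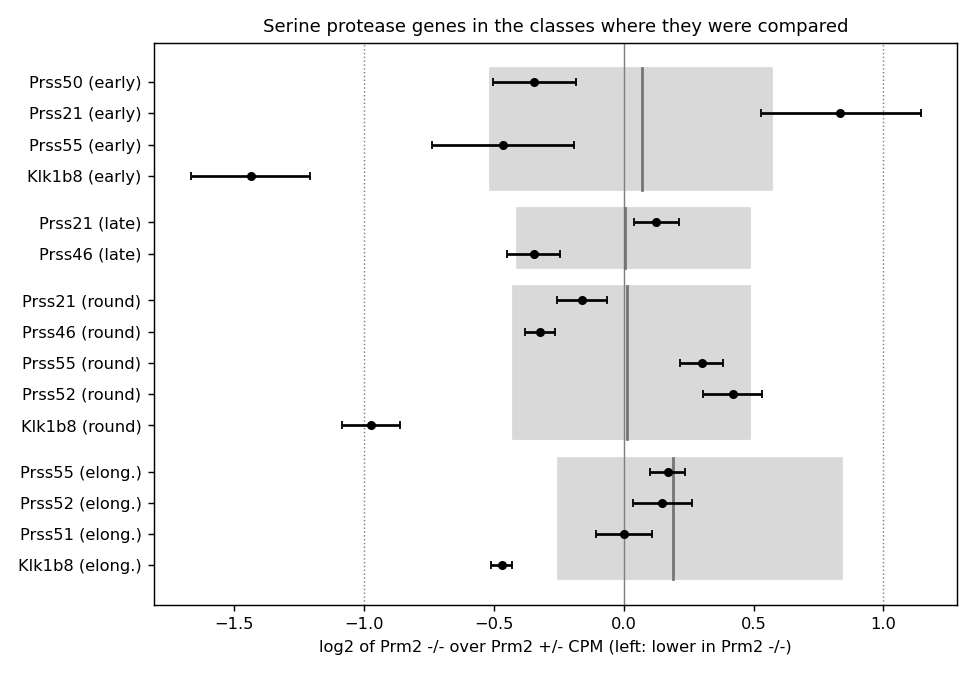
Log2 ratio of knockout over heterozygous CPM (x axis) for the 15 gene and class pairs compared, with exact 95% intervals; grey bands run from the 10th to the 90th percentile of all genes compared in the class, grey lines are its median, and dotted lines mark 2-fold. The 3 Klk1b8 points lie left of the bands, at -1.44, -0.97 and -0.47, Prss21 in the earliest class lies right of its band at 0.83, and the other 11 points lie within.

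Class sums mix clusters in different shares, which bears on Prss46, Prss55 and Prss52 in round-spermatid-like cells. Prss46 had a log2 ratio of -0.32 (-0.38 to -0.26) in the class sum and -0.11 with its clusters weighted equally. Within clusters it was -0.15 (cluster 4), -0.05 (clusters 13 and 16), -0.37 (cluster 3) and 0.31 (cluster 8, 0.07 to 0.56). In the class sum Prss55 was at 117 CPM in the knockout and 95.4 CPM in the heterozygous library (log2 0.30), and Prss52 at 63.2 CPM in the knockout and 47.2 CPM in the heterozygous library (log2 0.42). Cluster 8, the member of the class where both are highest, held 25.0% of the knockout and 9.24% of the heterozygous cells of the class. Within cluster 8 the log2 ratio was -0.16 (-0.27 to -0.05) for Prss55 and -0.08 (-0.22 to 0.07) for Prss52. The higher class sums in the knockout were therefore not seen within that cluster.

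The other testis trypsin-like proteases were taken as a list of 16, and most of those compared were lower in the knockout. In the earliest class 1 of 3 was higher and 2 lower in the knockout (median log2 ratio -0.32), in late-spermatocyte-like cells 3 of 8 were higher and 5 lower (-0.39), and in round-spermatid-like cells 2 of 6 were higher and 4 lower (-0.30). In elongating-spermatid-like cells 1 of 5 was higher and 4 lower (-0.15), or 0 and 5 with the TMM factor. None of these 16 passed 2-fold in a class (0). Without the TMM factor, each of these medians lay within the 10th to 90th percentiles of all genes compared in its class. The same genes also recur, since Prss39 and Prss54 were among the lower ones in every class. Prss54 was at 265 CPM in knockout and 331 CPM in heterozygous round-spermatid-like cells. Prss58 was at 243 CPM in knockout and 280 CPM in heterozygous elongating-spermatid-like cells, and like the chromosome 14 genes it was highest in cluster 7, at 365 CPM in the knockout and 427 CPM in the heterozygous library. Acr, the gene of the acrosomal protease acrosin, was at 223 CPM in knockout and 167 CPM in heterozygous round-spermatid-like cells.

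Of 13 other kallikrein 1 genes, 4 could be compared, and only in elongating-spermatid-like cells. All 4 were lower in the knockout (median -0.55) without passing 2-fold. With the TMM factor 2 of them passed it, where 2.35% of all genes compared in the class did so downwards and 1.57% upwards. Klk1b26 was at 189 CPM in the knockout and 268 CPM in the heterozygous library, and Klk1b9 at 196 CPM in the knockout and 231 CPM in the heterozygous library. Klk1b3 was at 62.1 CPM in the knockout and 93.2 CPM in the heterozygous library, and Klk1 at 30.8 CPM in the knockout and 58.3 CPM in the heterozygous library. The kallikreins of elongating spermatids thus stood on the same side of 0 as Klk1b8, which shares some sequence with Klk1b26. Klk1b9 (log2 -0.23) lay within the 10th to 90th percentiles of all genes compared (-0.25 to 0.84), and the others lay below them. Prm1 (log2 -0.29) and the 14 summed elongating spermatid markers (173443 CPM in the knockout, 202029 CPM in the heterozygous library) were on that side too.

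Of the protease inhibitors only Spink2, Spint2 and Serpinb6a could be compared in any class, so the counts by class repeat the same genes. Of 19, these 3 were compared in each of the earliest, late-spermatocyte-like and round-spermatid-like classes. Each time 2 were higher in the knockout (Spink2 and Spint2) and 1 was lower (Serpinb6a), with medians of 0.78, 0.47 and 0.41. In elongating-spermatid-like cells 2 were compared and both were higher (median 0.50), or 1 higher and 1 lower with the TMM factor. Spint2, a membrane-bound Kunitz-type inhibitor, was at 192 CPM in knockout and 94.8 CPM in heterozygous late-spermatocyte-like cells, the 1 inhibitor past 2-fold (log2 1.02). Spink2, which holds acrosin inactive in the acrosome, was at 381 CPM in knockout and 196 CPM in heterozygous elongating-spermatid-like cells (log2 0.96). Its highest cluster was 15, at 2731 CPM in the knockout and 2060 CPM in the heterozygous library, and the summed late spermatocyte markers of the elongating class also differed between libraries, as given below for Adam2 and Clgn.

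Of 17 genes of ADAM3 maturation and sperm migration, the pathway to which Prss55 belongs, 7 of 10 compared were higher in the knockout in the earliest class (median 0.32), 8 of 9 in late-spermatocyte-like cells (0.10), 9 of 14 in round-spermatid-like cells (0.13) and 11 of 12 in elongating-spermatid-like cells (0.50). With the TMM factor 7 of 12 were higher and 5 lower in the last class (median 0.04). Adam2, a partner of ADAM3, passed 2-fold in the earliest class, at 363 CPM in the knockout and 178 CPM in the heterozygous library, and in elongating-spermatid-like cells, at 63.8 CPM in the knockout and 23.6 CPM in the heterozygous library. Clgn, a chaperone of the endoplasmic reticulum that ADAM3 needs, did so among elongating-spermatid-like cells alone, with 120 CPM in the knockout and 54.7 CPM in the heterozygous library. With the TMM factor 0 genes of this list passed 2-fold in elongating-spermatid-like cells. Adam2 and Clgn were highest in spermatocyte-like clusters, and other stages' markers moved with them in the elongating class. Its late spermatocyte markers (11 of 12 above 10 CPM in the knockout and 8 in the heterozygous library) summed to 558 CPM in the knockout and 274 CPM in the heterozygous library. Its early spermatocyte markers (6 and 3 of 12) summed to 265 and 117 CPM, and its Sertoli markers (6 and 4 of 11) to 440 and 99.3 CPM, in the same order of libraries. In the earliest class the late spermatocyte markers summed to 1522 CPM in the knockout and 994 CPM in the heterozygous library, and the Sertoli markers to 418 and 209 CPM. The marker sums of spermatogonia, early spermatocytes, round spermatids and elongating spermatids were lower in the knockout in that class. Their part in these differences was not tested. Of 7 acrosin- and zona-binding genes, 3 of 6 compared were higher in the knockout in the earliest class (median 0.05), 1 of 6 in late-spermatocyte-like cells (-0.14), 4 of 7 in round-spermatid-like cells (0.11) and 5 of 5 in elongating-spermatid-like cells (0.71), or 4 of 5 with the TMM factor (0.25). These medians stand beside those of all genes compared given above, which were highest in elongating-spermatid-like cells at 0.19.

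The genes with the most similar profile were found among 6253 others, by the r of log2(CPM + 10) over the same clusters in each library. For Prss50 they were Crlf3 (r = 0.989 in the knockout and 0.991 in the heterozygous library), Hist1h1a and Bclaf3. For Prss21 they were Izumo4 (0.969 and 0.975), Slc25a54 and Slc22a16, and for Prss46 they were Foxj1 (0.978 and 0.973), Glipr1l3 and Carmil1. For Prss55 they were Klrb1 (0.988 and 0.983), Iqcf1 and Bcl2l11, for Prss52 Trp53tg5 (0.982 and 0.989), Spata31d1b and Actrt3, and for Prss51 Prss58 (0.973 and 0.980), Tmem151a and Srcin1. For Klk1b8 they were Prm1 (0.996 in both libraries), Spata32 and Klk1b9. Prss46 and Prss50, only 1.44 kb apart, had an r of -0.29 in the knockout and -0.22 in the heterozygous library. These values describe clusters that share libraries and depth, and are no test.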

How the data were processed

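Dissociated testis cells were captured with a droplet kit for transcript 3' ends from 10x Genomics, per the labels' protocols. The deposited files hold whole-number UMI counts for each gene and barcode. Per the file headers, the authors made these counts with Cell Ranger 7.1.0. Seurat 4.1.0 and mm10 are named by the submitters' processing notes, and the annotation release is not given in the sources used here. No barcode was under 500 UMIs, so cells had been called before deposit. Other samples' columns numbered 0.

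Kept cells had 500 or more UMIs, 250 or more genes and no more than 20% mitochondrial UMIs. They numbered 22503 in the knockout and 15038 in the heterozygous library. Scrublet in scanpy 1.11.5 marked 3540 (15.7%) and 462 (3.07%) of them as doublets, which were removed; more may remain in the heterozygous library. Both libraries were clustered together (2000 variable genes, 30 components, 20 neighbours, Leiden resolution 1) without the members, the listed genes, protamine and transition protein genes, Xist, mitochondrial and Y genes. Clusters were named from 13 marker sets, by the best mean standardized score of a set, with a minimum score of 0.5 and a lead of 0.25. That scoring rule, and the joint name for cluster 5, were set after seeing the data. The members and the 5 gene lists were chosen with earlier results of these data known. A class joins clusters of the same name, with "-like" added to it.

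For each class and library UMIs were added up and scaled to CPM, with exact Poisson intervals for levels, exact conditional binomial intervals for ratios and Clopper-Pearson intervals for shares (scipy 1.17.1). Shares used cells thinned to 2000 UMIs, leaving out shallower cells. The calculations were tested on simulated data. Besides the members, the text names listed genes past 2-fold or among the 3 highest of their list in a spermatid or late spermatocyte class, the 3 genes most like each member, leaving out predicted names, and chromosome 9 neighbours, Leydig-cell kallikreins and antisense genes chosen for their position or after their values were seen. Alternatives changed the cell filters, doublet removal, scaling of genes, resolution, class definition, weighting, TMM factors (edgeR 4.0.16) and thresholds. The sources give no replicates, so p-values were not computed.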

Additional observations from a re-analysis of the deposited data

How the results depend on the processing

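The class of the highest level was recomputed under 8 alternatives. Prss46 moved in 2 of them, and no other member moved (0). With at least 1000 UMIs per cell, or with genes scaled within each library, 2 members were highest in late-spermatocyte-like and 0 in round-spermatid-like cells, in place of 1 and 1. The number of gene and class pairs at least 2-fold lower in the knockout, 1 as reported, was 0 with at most 10% mitochondrial UMIs, with all filtered cells kept, with classes from each cell's own markers and with a minimum of 200 CPM. It was 2 with Leiden resolution 2, with each cell or each cluster weighted equally, and with a minimum of 10 CPM. The number at least 2-fold higher, 0 as reported, was 1 with all filtered cells kept and with resolution 2. The cause was not tested.

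The Klk1b8 log2 ratio in elongating-spermatid-like cells ranged from -0.93 (TMM) to -0.46 over 12 alternatives, and that of Prss46 in round-spermatid-like cells from -0.43 to -0.11, both with 0 changes of sign. Prss50 in the earliest class ranged from -0.98 with all filtered cells kept to 0.24 with classes from each cell's own markers, Prss21 in late-spermatocyte-like cells from -0.10 to 0.23, and in elongating-spermatid-like cells Prss51 from -0.46 to 0.58, Prss52 from -0.31 to 1.03 and Prss55 from -0.29 to 0.37. No paired analysis was possible because each genotype has 1 library. Depth limits Prss50 outside cluster 5 and all members in Leydig-like cells, where few UMIs were counted.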
